A study of Mus musculus with 4 samples.

Results

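The immunity-related GTPases (IRG proteins) were followed in mouse macrophages that had been exposed to lipopolysaccharide (LPS) and then to galectin-1. The 7 genes described are Irgm1, Irgm2, Igtp, Iigp1, Tgtp1, Tgtp2 and Gvin1, chosen by symbol from the 23284 gene symbols measured. All 7 were present. Levels are given as FPKM, which scales the fragments of a gene to its transcript length and to the size of the library. Genes averaging less than 1 FPKM were not tested, which left 9380 symbols and 6 of the 7 members, all but Gvin1.

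The cells were macrophages grown in culture from the bone marrow of wild-type mice and plated at 1000000 cells per well. Every culture received LPS, a bacterial cell wall component, at 1 µg/ml for 1 h. The vehicle group then had phosphate-buffered saline and the galectin-1 group the recombinant mouse protein, which binds galactose-bearing glycans, for 24 h. Each group had 2 libraries, so both groups carry the LPS stimulus, and cultures without LPS were not analysed here. The sources used here do not give strain, age, sex or the dose of galectin-1. They also do not say whether the replicates are separate cultures or animals. A p-value here thus measures spread between libraries alone, and that spread may be technical.

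IRG proteins are dynamin-like GTPases that protect mouse cells against bacteria and protozoa living inside vacuoles. Interferons switch their genes on, and in LPS-treated macrophages the interferon beta made by the cells themselves can do so. The regulatory members Irgm1, Irgm2 and Igtp (also called Irgm3) have a methionine in place of the usual lysine of the first nucleotide-binding motif. They sit on the cell's own membranes and hold the effector members, such as Iigp1 (Irga6) and Tgtp1 and Tgtp2 (Irgb6), in the inactive state. The effectors otherwise gather on the vacuole of an intruder and break its membrane. Gvin1 encodes a very large interferon-inducible GTPase.

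All 7 symbols were found in RefSeq's table of GRCm38.p6, which is the mm10 build named in the submitters' processing notes, and 5 of the members lay on chromosome 11. Igtp was at chr11:58199556-58207592 and Irgm2 at chr11:58214977-58222783, both on the plus strand and separated by 7384 bases. Irgm1 (chr11:48865245-48871420), Tgtp1 (chr11:48985329-48992246) and Tgtp2 (chr11:49057196-49064212) lay on the minus strand, with 64949 bases between the Tgtp genes. Gvin1 was at chr7:106156535-106215340. The longest coding transcripts in GENCODE M21 had 3 exons for Irgm1, Irgm2, Igtp and Iigp1, 2 for Tgtp1 and Tgtp2 and 4 for Gvin1.

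Promoter sequence from RefSeq (GRCm38.p6), 250 bases before to 50 after the gene start, was found for 5 members. The last 100 bases before the start are printed 5′ to 3′ on the strand of the gene, because they hold every match to the 2 interferon motifs searched on both strands. Capitals mark those matches, to GAS (TTCNNNGAA, the gamma-activated site) and to ISRE (GAAA, any 2 bases and GAAA again, a site bound by IRF factors).
Igtp, chr11:58199456-58199555, plus strand: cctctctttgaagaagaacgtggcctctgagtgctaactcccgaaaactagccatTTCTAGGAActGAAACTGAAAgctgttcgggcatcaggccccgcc
Irgm2, chr11:58214877-58214976, plus strand: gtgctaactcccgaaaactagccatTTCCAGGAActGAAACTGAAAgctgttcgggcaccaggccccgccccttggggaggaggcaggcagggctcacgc
Irgm1, chr11:48871421-48871520, minus strand: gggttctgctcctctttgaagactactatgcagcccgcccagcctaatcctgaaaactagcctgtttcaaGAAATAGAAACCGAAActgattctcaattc
Tgtp1, chr11:48992247-48992346, minus strand: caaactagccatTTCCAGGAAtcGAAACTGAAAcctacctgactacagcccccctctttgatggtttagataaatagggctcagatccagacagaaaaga
Tgtp2, chr11:49064213-49064312, minus strand: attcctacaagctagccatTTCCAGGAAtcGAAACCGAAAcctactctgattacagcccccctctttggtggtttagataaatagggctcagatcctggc

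All 5 promoters held an ISRE match, against 3.44% of the 32851 promoter windows in the table. A GAS match was present in 4 of the 5, Irgm1 being without it in this window, against 8.30% of all windows. The windows rest on RefSeq starts. GENCODE begins Irgm1 at 48871683, Tgtp1 at 48994172 and Irgm2 at 58199618, all further upstream, and windows at those starts were not searched. Irgm1 had 2 ISRE matches that overlapped each other. In Igtp, Irgm2, Tgtp1 and Tgtp2 the GAS match ended 2 bases before the ISRE match. That arrangement, searched for after it was seen in these sequences, was found in 5 of 32851 windows, those of the 4 genes and of Gm12185, another IRG gene of the chromosome 11 cluster. Aligned over 215 bases, the Igtp and Irgm2 promoters (250 bases before the start) were 90.2% identical, and those of Tgtp1 and Tgtp2 were 77.0% identical over 222. A match describes the letters only and shows neither binding nor use of a site.

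The members differed widely in level, from Irgm1 among the most abundant transcripts to Gvin1 below 1 FPKM. By mean FPKM over the 4 libraries Irgm1 ranked 100 of the 9380 tested symbols, Igtp 266, Iigp1 284, Irgm2 364, Tgtp2 1015 and Tgtp1 4969. Irgm1 made up 43.6% of the summed FPKM of the 7 genes in vehicle and 44.6% with galectin-1. The sum itself was 1868 and 1878 FPKM in the vehicle libraries and 2011 and 1955 FPKM with galectin-1. The order of Igtp and Iigp1 was not the same in the 2 groups: Iigp1 was the higher in both vehicle libraries and Igtp in both galectin-1 libraries.

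**Figure D1:**
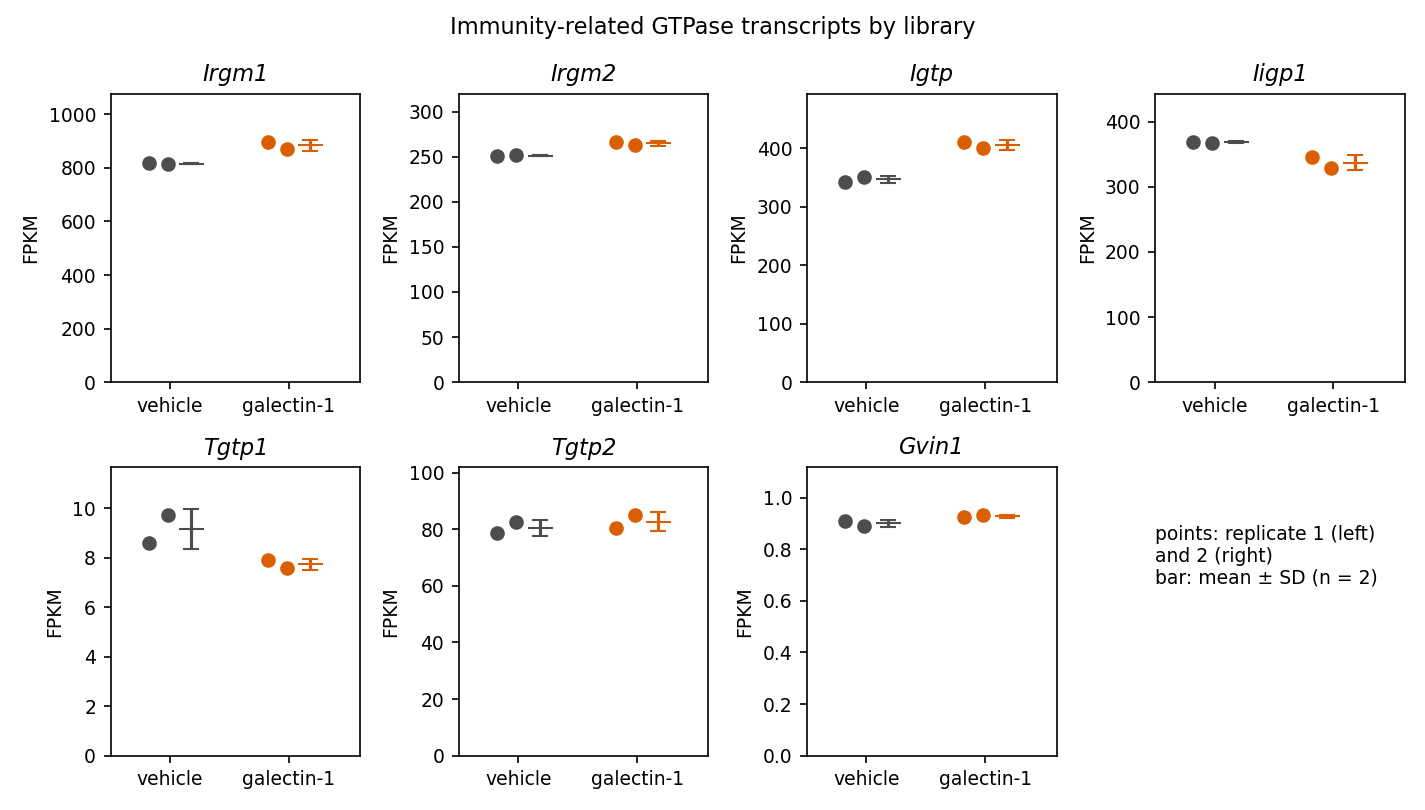
FPKM of each of the 7 genes (vertical axes, each starting at 0) in the vehicle and galectin-1 libraries. Points are libraries and bars the mean ± SD of 2. The galectin-1 libraries lie above the vehicle libraries for Irgm1, Irgm2, Igtp and Gvin1 and below them for Iigp1 and Tgtp1. For Tgtp2 the groups overlap.

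The comparison of galectin-1 with vehicle asks how the lectin changes the character of LPS-stimulated macrophages. Of the 6 tested members, Igtp rose, none fell and 5 did not pass (limma, Benjamini-Hochberg adjusted p under 0.05 over all tested genes). Over all tested genes 1.19% passed, 0.608% as higher and 0.586% as lower. The groups did not overlap for 5 of the 6 members, 3 of them higher (29.1% of all tested genes) and 2 lower (26.2%), against 55.4% in either direction. At an unadjusted p under 0.05 there were 3 higher and 2 lower members, where 23.2% of all tested genes had such a p in either direction. The median difference of the 6 was 0.06 on the log2(FPKM + 1) scale, beside 0.00 for all tested genes, and 0.02 after quantile normalization, beside 0.01 for all.

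Igtp, a regulatory member found on the endoplasmic reticulum, had 342 and 351 FPKM in vehicle replicates 1 and 2 and 411 and 399.9 FPKM in galectin-1 replicates 1 and 2. Both galectin-1 libraries lay above both vehicle libraries. The mean went from 346 ± 6.50 to 406 ± 8.0 FPKM (SD, n = 2 per group), or 17.1% more. The log2 difference was 0.23 with a standard error of 0.03 and a 95% interval of 0.15 to 0.30 (limma, adjusted p = 0.0446). In bulk RNA, a change in how many cells carry a transcript and a change in its amount per cell cannot be told apart. The call was close to the threshold and needed all 4 libraries: the adjusted p was 0.187 without vehicle replicate 1, 0.182 without vehicle replicate 2, 0.172 without galectin-1 replicate 1 and 0.221 without galectin-1 replicate 2. It was also lost after quantile normalization (0.0871), with no filter on low values (0.137) and in limma without the variance trend (0.148), while the difference stayed between 0.19 and 0.25 in all 12 alternatives.

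Irgm1, the regulator of lysosomal membranes and the Golgi and the most abundant member, had 818 and 815 FPKM with vehicle and 898 and 870.3 FPKM with galectin-1. The galectin-1 libraries were the higher ones without overlap, and the log2 difference was 0.11 with a standard error of 0.03 (95% interval 0.05 to 0.18). It did not pass (limma, adjusted p = 0.102). Irgm2, the third regulator, had 250.7 and 251 FPKM with vehicle and 267 and 263 FPKM with galectin-1. Its libraries did not overlap either, with the smallest log2 difference of the regulators, 0.08 (standard error 0.03, 95% interval 0.01 to 0.14, limma adjusted p = 0.188). Differences of Irgm1, Irgm2 and Igtp were positive in all 12 alternatives. Since their groups did not overlap, only quantile normalization and upper quartile scaling could have changed a sign. Quantile normalization gave 0.07 for Irgm1, 0.06 for Irgm2 and 0.19 for Igtp. Upper quartile scaling gave 0.10, 0.06 and 0.21.

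Among the effectors, Iigp1, at chr18:60373616-60392634 on the plus strand, differed in the other direction. It had 369 and 368 FPKM in the vehicle libraries and 346 and 329 FPKM with galectin-1, all lower than vehicle. The log2 difference was -0.13 with a standard error of 0.03 and a 95% interval of -0.21 to -0.05, and it did not pass (limma, adjusted p = 0.111). It was negative in all 12 alternatives. Without overlap, only quantile normalization (-0.15) and upper quartile scaling (-0.14) could have changed that sign.

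The Tgtp genes encode a near-identical pair of effectors, and their rows went apart. Tgtp2 had 78.6 and 82.5 FPKM with vehicle and 80.4 and 85.0 FPKM with galectin-1, so that the groups overlapped. Its log2 difference was 0.04 (standard error 0.04, 95% interval -0.07 to 0.15, limma adjusted p = 0.649), and it was -0.01 after quantile normalization and 0.00 with a negative sign without galectin-1 replicate 2. Tgtp1 had 8.59 and 9.73 FPKM with vehicle and 7.89 and 7.58 FPKM with galectin-1. These groups did not overlap, and the log2 difference was -0.22 with a standard error of 0.08 (95% interval -0.40 to -0.03, limma adjusted p = 0.173).

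The Tgtp1 and Tgtp2 transcripts, 2823 and 2810 bases long in GENCODE M21, were 99.8% identical. Of all windows of 100 bases in Tgtp1, 80.0% occurred word for word in Tgtp2, so few positions can assign a fragment to either gene. The sources used here do not say how such fragments were divided. With the FPKM of the pair summed in each library, the totals were 87.1 and 92.3 with vehicle and 88.3 and 92.6 with galectin-1. These overlap. The log2 difference of the sum was 0.01 with a 95% interval of -0.10 to 0.12 (limma, adjusted p = 0.901), which turned negative in 4 of 12 alternatives.

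Gvin1 had 0.910 and 0.890 FPKM with vehicle and 0.924 and 0.932 FPKM with galectin-1. The groups did not overlap, at a difference of 0.02 on the log2(FPKM + 1) scale, and no test was made below the expression minimum. In the fit with no filter the adjusted p of Gvin1 was 0.906 (limma). Of its windows of 50 bases, 99.2% occurred in transcripts of other genes, above all Gm4070 (98.3%), its near copy on chromosome 7. Gm4070 had 3.46 ± 0.237 and 2.95 ± 0.162 FPKM (SD, n = 2 per group), a log2 difference of -0.17 (limma, adjusted p = 0.304). The low level of Gvin1 is thus the level of the row and not of the gene and its copies together.

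**Figure D2:**
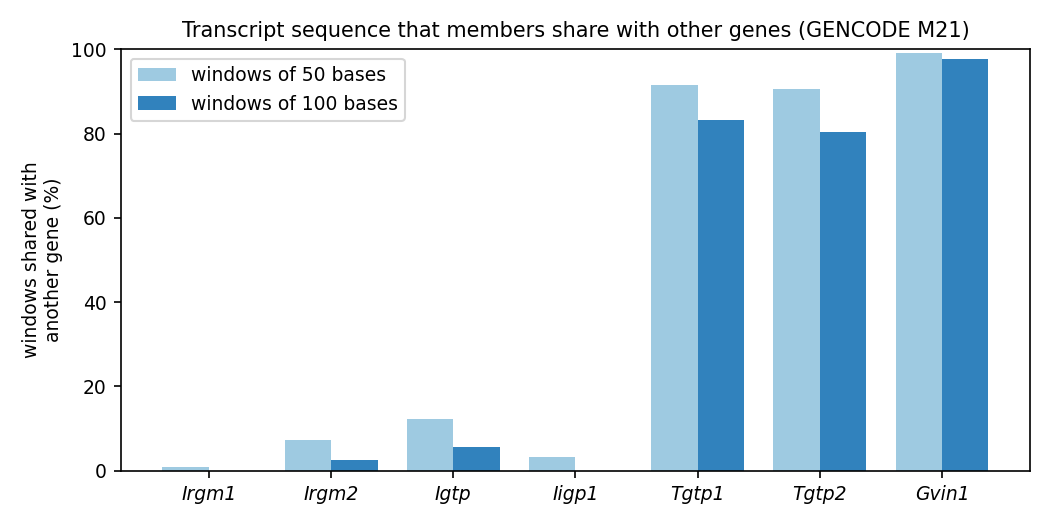
Share of windows of 50 or 100 bases in the longest coding transcript of each member (percent, vertical axis) that also occur in a transcript of another gene. Bars are high for Tgtp1, Tgtp2 (80.4% at 100 bases) and Gvin1 (97.8%), and low for the other 4 members.

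The other members shared far less. No window of 100 bases of Irgm1 or Iigp1 occurred in another gene. For Igtp it was 5.67% and for Irgm2 2.48%, all of it with each other, where a GENCODE transcript model of Irgm2 begins inside Igtp. Away from that overlap none of their windows of 100 bases was shared. In GENCODE the Tgtp genes also lie within the span of Olfr56 on the opposite strand without touching its exons. On their own strand, exons of Tgtp1 overlap those of Gm12185, which holds 4.55% of the windows of 100 bases of Tgtp1.

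Ratios of members within a library are free of the scaling of that library. Igtp stood to Irgm2 at 1.36 and 1.40 with vehicle and at 1.54 and 1.52 with galectin-1. Their promoters are the closely similar pair printed above. Irgm1 stood to Iigp1 at 2.22 and 2.22 with vehicle and at 2.60 and 2.65 with galectin-1. The sum of the 3 regulators stood to the sum of the 3 effectors Iigp1, Tgtp1 and Tgtp2 at 3.09 and 3.08 with vehicle and at 3.63 and 3.64 with galectin-1. In each ratio the groups did not overlap, and the log2 difference of the ratio of sums was 0.24. For Irgm1 over Iigp1 this restates the member values, since Irgm1 was higher and Iigp1 lower without overlap. The effector sum is mostly Iigp1, so the ratio of sums largely repeats those rows. How often ratios of other gene pairs do not overlap was not counted, while 55.4% of single tested genes did not overlap. The effector sum leaves out the effectors that are no members. Set against all 11 other tested IRG rows but Irgq, an alternative added after seeing the data, the regulators stood at 0.853 and 0.842 with vehicle and at 0.925 and 0.927 with galectin-1, a log2 difference of 0.13. Of the summed FPKM of the 7 genes, Igtp made up 18.5% with vehicle and 20.4% with galectin-1, and Irgm2 13.4% and 13.3%. With 2 libraries in each group the smallest 2-sided p of an exact permutation test is 0.333, and the ratios were not tested.

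**Figure D3:**
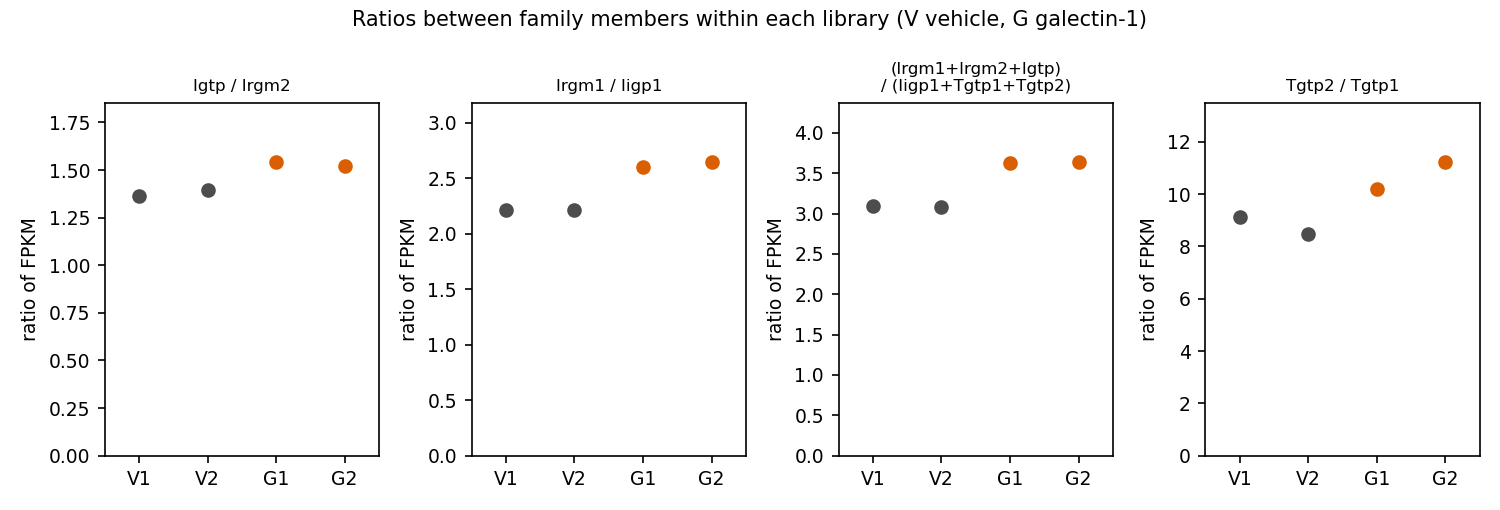
Ratio of FPKM between family members (vertical axes, each starting at 0) in vehicle replicates 1 and 2 (V1, V2) and galectin-1 replicates 1 and 2 (G1, G2). All 4 ratios are higher in the galectin-1 libraries. For Irgm1, Irgm2 and Igtp over Iigp1, Tgtp1 and Tgtp2 the replicates of a group nearly coincide. Tgtp2 over Tgtp1 (mean 8.81 with vehicle, 10.7 with galectin-1) compares near-identical transcripts, and how their shared fragments were divided is unknown.

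Further rows of the family were read beside the members. Of 16 other IRG and very large GTPase symbols listed, 12 were found and 9 tested, and none passed (limma). At an unadjusted p under 0.05 there were 3 higher and 1 lower, against 23.2% of all tested genes in either direction. The median log2 difference was 0.10, and 0.05 without vehicle replicate 1. The effector Gm12250 (Irgb10), which attacks the envelopes of bacteria and which GENCODE M21 lists as a processed pseudogene, had 261 and 259.7 FPKM with vehicle and 293 and 278 with galectin-1 (0.13, limma adjusted p = 0.114). Gm5431 (Irgb9b8) had 92.3 in both vehicle libraries and 104 and 98.9 with galectin-1 (0.14, adjusted p = 0.121). F830016B08Rik (Ifgga4) had 7.28 and 6.87 with vehicle and 5.69 and 5.63 with galectin-1 (-0.28, adjusted p = 0.102). Irgq, a divergent IRG relative, had 2.89 and 2.85 with vehicle and 3.82 and 3.80 with galectin-1 (0.32, adjusted p = 0.104). Gm4951 (Ifgga2) and 9930111J21Rik1 had log2 differences of -0.08 and 0.09, and the very large GTPase rows Gm8979 and Gm4759 of 0.10 each, with adjusted p from 0.264 to 0.559. The groups of these 2 IRG rows and of Gm8979 did not overlap, and those of Gm4759 did.

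The rows were also grouped by chromosome, after their values were seen. All 4 tested IRG rows of chromosome 18 were lower with galectin-1 without overlap. They were Iigp1, Gm4951, F830016B08Rik and Gm4841 (Ifgga3, added after the lists were written). All 4 differences were negative in each of the 12 alternatives. Given no overlap, only quantile normalization and upper quartile scaling could have changed a sign, so the other alternatives add no support. Gm4841 had 7.43 and 7.05 FPKM with vehicle and 6.10 and 5.99 with galectin-1 (-0.23, limma adjusted p = 0.131). Of 10 tested rows of chromosome 11, with Ifi47 (Irgd) and Gm12185 (Irgb2b1, also added later), 9 differences were positive, 7 of 10 rows were higher without overlap, and Tgtp1 was the negative one. Over all tested genes, 29.1% were higher and 26.2% lower without overlap, and 4754 of 9380 differences were positive. Among the 9 positive rows of chromosome 11, Tgtp2 (0.04), Gm12185 (0.02) and Ifi47 (0.02) lay near 0. The positive count on chromosome 11 was 7 after quantile normalization, 8 after upper quartile scaling and 8 or 9 when a library was left out. Ifi47 had 712 and 737 FPKM with vehicle and 741 and 724 with galectin-1 (0.02, limma adjusted p = 0.798, with a negative sign in 4 of 12 alternatives). No difference between the chromosomes was tested, and copies within a cluster share sequence.

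**Figure D4:**
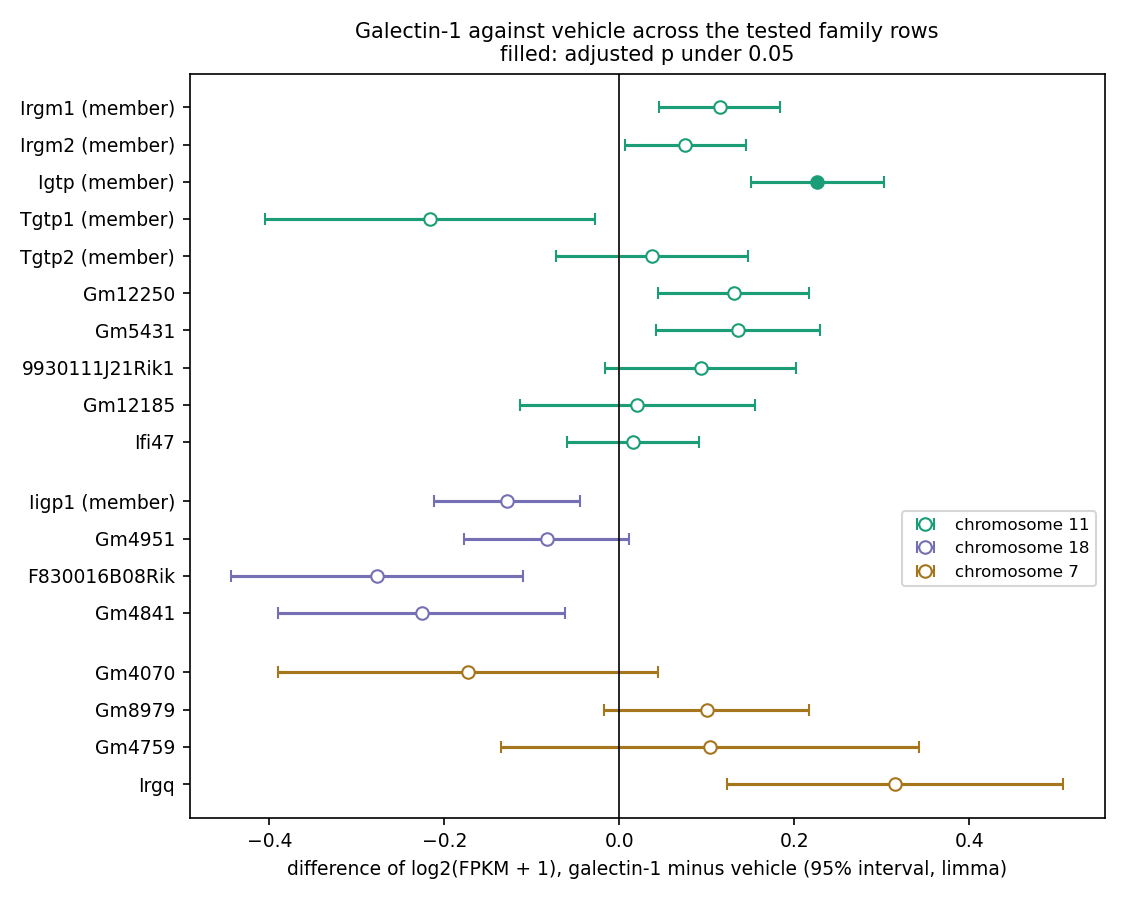
Difference of log2(FPKM + 1), galectin-1 minus vehicle, with its 95% interval from limma (horizontal axis), for the tested rows of the family, by chromosome. Igtp is the filled point, past the threshold. The 4 chromosome 18 rows lie left of 0, and 9 of the 10 chromosome 11 rows lie right of it.

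The guanylate-binding proteins, larger relatives that interferons induce together with the IRG genes, were read with the Mx proteins. Of 13 listed and found, 11 were tested, with 2 lower, 0 higher and 9 not past the threshold. Over all tested genes 0.586% passed as lower and 0.608% as higher. At an unadjusted p under 0.05, 8 of the list were lower and 1 higher, against 23.2% of all tested genes in either direction. Gbp4 fell from 158 ± 3.05 to 117 ± 2.60 FPKM and Gbp9 from 209 ± 4.91 to 177 ± 0.520 FPKM (SD, n = 2 per group; log2 differences -0.43 and -0.24, limma adjusted p = 0.0179 and 0.0446). Without any of the 4 libraries in turn these calls were lost, with adjusted p of 0.0696 to 0.105 for Gbp4 and 0.161 to 0.221 for Gbp9, and also with no filter and without the trend. The list median was -0.16. Without overlap, 8 of the 11 were lower and 2 higher, beside 26.2% lower and 29.1% higher of all tested genes. The 2 higher ones were Gbp6 (0.02) and Gbp2, the most abundant gene of the list. Gbp2 had means of 1034 FPKM with vehicle and 1102 FPKM with galectin-1 (0.09, limma adjusted p = 0.148). Whether this list and the IRG genes differ was not tested.

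Upstream of the family, no interferon ligand or receptor gene passed among 5 tested of 8 listed. Ifng was at 0.144, 0.0743, 0.210 and 0 FPKM over the vehicle and galectin-1 libraries in order. Ifnb1, the interferon that LPS induces, had 14.5 and 12.9 FPKM with vehicle and 15.0 and 16.9 with galectin-1 (0.21, limma adjusted p = 0.201). The receptor chain Ifngr1 had 48.1 ± 1.66 and 53.1 ± 0.523 FPKM (SD, n = 2 per group; 0.14, adjusted p = 0.132). The median was 0.04, and 0.00 with a negative sign without vehicle replicate 2.

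Of 13 interferon signalling and transcription factor genes, 12 were tested and none passed, with a median of -0.02. At an unadjusted p under 0.05, 2 were higher and 2 lower, against 23.2% of all tested genes in either direction. Jak1, the kinase shared by the interferon receptors, had 91.8 and 95.6 FPKM with vehicle and 109 in both galectin-1 libraries (0.21, limma adjusted p = 0.0581, and 0.0453 with the minimum raised to 5 FPKM). Batf2, an interferon-induced transcription factor, had a log2 difference of -0.17 (adjusted p = 0.101). Irf1, an activator of interferon-induced promoters, had a log2 difference of -0.02, which was 0.00 with a positive sign without vehicle replicate 1 (limma, adjusted p = 0.704).

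Among 8 negative regulators of interferon signalling, Socs3 rose from 641 ± 7.92 to 734 ± 4.44 FPKM (SD, n = 2 per group; 0.19, limma adjusted p = 0.0446), and 7 did not pass. Its call was lost without any of the 4 libraries in turn (adjusted p from 0.172 to 0.227), after quantile normalization (0.0690) and after upper quartile scaling (0.0516), with no filter and without the trend. The list median was 0.10. Over all tested genes 0.608% passed as higher. At an unadjusted p under 0.05, 4 of these 8 regulators were higher and 1 lower, against 23.2% of all tested genes in either direction. Of 15 other genes induced by interferon gamma, 14 were tested and none passed. Their median was 0.03, and -0.02 after quantile normalization. Psmb9, an immunoproteasome subunit, had a log2 difference of -0.20 (limma, adjusted p = 0.0555, and 0.0425 with the minimum raised to 5 FPKM). Serpina3g, a serpin, had a log2 difference of -0.21 (limma, adjusted p = 0.0731). Of the 14 genes, 5 were higher and 4 lower at an unadjusted p under 0.05, against 23.2% of all tested genes in either direction.

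The conjugation machinery of autophagy, which directs IRG proteins to vacuoles, had 15 genes tested and none past the threshold, with a median of 0.03. Atg5, part of the conjugating complex, had 6.81 ± 0.137 and 7.90 ± 0.0704 FPKM (SD, n = 2 per group; 0.19, limma adjusted p = 0.156). Gabarapl1, a ubiquitin-like substrate of that machinery, had a log2 difference of 0.13 (adjusted p = 0.218).

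**Figure D5:**
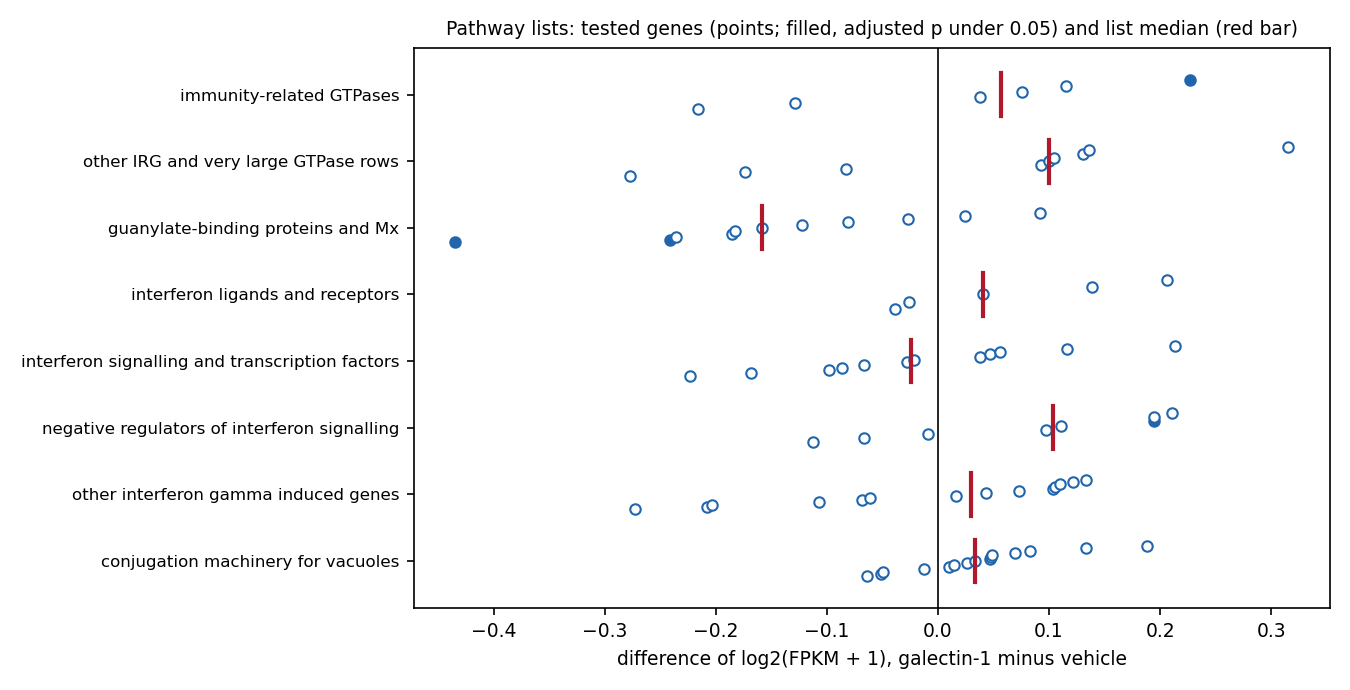
Difference of log2(FPKM + 1), galectin-1 minus vehicle (horizontal axis), for the tested genes of each pathway list. Points are genes, filled where past the threshold, and red bars are list medians, from -0.16 for the guanylate-binding proteins to 0.10 for the negative regulators and for the other IRG rows.

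The genes whose profile over the 4 libraries was most like that of Igtp were Eed, Yy1 and Gdpd1, with root mean square differences of 0.0051, 0.0080 and 0.0082 between centred log2(FPKM + 1) values. Irgm1 stood at place 746 by this measure (0.0580) and Irgm2 at place 1515 (0.0767), counted over all tested genes with unnamed gene models kept. Such closeness over 4 libraries is a description, since the 2 groups alone set most of the profile.

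The libraries had 13636 to 13785 symbols above 0 and totals of 541138 to 557661 FPKM. Steps of low FPKM values put their depth at 0.879 to 1.02 of vehicle replicate 1, and the absolute depth is unknown. Of 12 macrophage markers, all were found and 11 tested, 10 with positive differences and none past the threshold. Over all tested genes, 4754 of 9380 differences were positive. Mertk was the negative marker (-0.17, lower without overlap). The summed level of the macrophage markers was 10059.7 to 10071.8 FPKM with vehicle and 10889.9 to 10890.5 with galectin-1, the direction of the regulators. Most of that sum and of its rise was Lyz2, with means of 5701 FPKM in vehicle and 6246 FPKM with galectin-1. Of 10 dendritic cell markers, 4 were tested. While 0.586% of all tested genes passed as lower, Fscn1 fell (-0.47, limma adjusted p = 0.0425), a call that needed all 4 libraries. Its difference was -0.50 to -0.44 when a library was left out. The summed level of the list was 24.4 FPKM in both vehicle libraries and 19.2 and 19.5 with galectin-1, the direction of Iigp1. Most of that sum was Fscn1 (mean 11.5 with vehicle, 8.01 with galectin-1) and Ccl22 (9.04 and 7.34). Of the 4 tested, 3 differences were negative and that of Itgax was positive (0.06). Below 1 FPKM and not tested, Zbtb46 was higher and Cd209a lower without overlap. Flt3, Xcr1, Clec9a and Siglech had positive differences with overlap. None of the 10 dendritic cell markers was at 0 in every library. The part of either marker list in the IRG values was not tested. Of 11 T and NK cell markers found, Cd3e, Cd3g, Nkg7, Gzma and Prf1 were at 0 in all 4 libraries. The list summed to 3.72 to 4.30 FPKM, most of it Cd4 (mean 3.92 with vehicle, 3.57 with galectin-1). Sums were 2.62 to 3.60 FPKM for 5 B cell markers and 1.34 to 2.92 for 6 neutrophil markers found, 2 of these at 0 throughout. Most of the B cell sum was Cd79b (mean 3.07 with vehicle, 2.86 with galectin-1). The 8 fibroblast markers summed to 15.5 and 15.6 FPKM with vehicle and 19.3 and 18.7 with galectin-1, with none past the threshold.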

How the data were processed

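The authors deposited FPKM values, 1 for each symbol in each library. Cufflinks 2.2.1, TopHat2 2.0.13, SAMtools 0.1.19, Bowtie2 2.2.3 and the build mm10 are listed, with no roles, in the submitters' processing notes. Per the labels' protocols, the kit selected poly(A) RNA and kept strand. The sources used here do not give the annotation, the use of strand in counting or the treatment of fragments that map to several places.

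Groups and replicate numbers came from the sample titles. Symbols with a mean of at least 1 FPKM were compared as log2(FPKM + 1), which understates changes of low genes, with limma 3.58.1 in R 4.3.3 (empirical Bayes moderation, variance trend, 2-sided, Benjamini-Hochberg over all tested genes, threshold 0.05, 2 residual and 3.89 prior degrees of freedom). The test was tried on simulated data. FPKM are not counts, so no count model was fitted. Replicate libraries correlated at 0.983 and 0.988 (Pearson, log2 values), and no libraries were identical.

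Members and lists were chosen with earlier results of these data known. Named genes were the 7 members, other family rows of at least 1 FPKM, and per list every gene past the threshold, otherwise the 2 of smallest p. A few others, among them Irf1 and Ifng, were added for their roles after their values were seen. Likeness left out unnamed gene models and microRNAs. Transcript windows of the members were compared with all GENCODE M21 transcripts. Lists were not tested as sets. A result on 1 gene is not reported here.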

Additional observations from a re-analysis of the deposited data

How the results depend on the processing

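Counts of called genes depended strongly on the settings. The 57 higher and 55 lower genes became 1 and 2 with no filter, 127 and 99 with the minimum raised to 5 FPKM, 24 and 47 after quantile normalization, 1 and 1 in limma without the trend, and 189 and 176 without small RNA entries, a setting chosen after seeing the data. Leaving out a library gave 4 to 9 higher and 3 to 12 lower genes, where the lone library of a group is assumed to vary like the others. Of the calls 50.9% were increases, 33.8% after quantile normalization and 37.9% after upper quartile scaling. Neither scaling moved the median of all genes by more than 0.1.

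With the replicate number as a block there were 123 higher and 117 lower genes. Replicates with the same number did not deviate together (r = 0.0114 across 9380 genes), and nothing in the labels ties the numbers together. Igtp passed with the replicate block (adjusted p = 0.0315) and no other member did.

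The log2 difference of Igtp was 0.23 with no filter and without the trend and 0.19 after quantile normalization, where its call was lost, and 0.21 to 0.25 when a library was left out. It passed in 5 of 12 alternatives. Tgtp1 at -0.22 became 0.012 when the pair was summed. Tgtp2 was -0.013 after quantile normalization and -0.0016 to 0.077 when a library was left out, the lowest without galectin-1 replicate 2. The sum of Tgtp1 and Tgtp2 was -0.027 after quantile normalization, -0.0045 after upper quartile scaling, and -0.029 to 0.053 when a library was left out. The negative values were -0.029, where vehicle replicate 1 was omitted, and -0.022, where galectin-1 replicate 2 was. Ifi47 was -0.034 after quantile normalization, -0.00091 after upper quartile scaling, and -0.0093 (vehicle replicate 1 omitted) to 0.041 when a library was left out, with -0.0017 where galectin-1 replicate 1 was omitted. Irf1 was -0.047 to 0.0042 when a library was left out, the highest where vehicle replicate 1 was omitted. Jak1, Psmb9 and Serpina3g passed with the replicate block (adjusted p = 0.0447, 0.0411 and 0.0488). Gvin1 was 0.040 with a pseudocount of 0.1. Settings that keep the expression minimum and refit across genes gave no test of Gvin1. No other member changed its sign or passed. Precision was limited by 2 libraries per group and an unknown absolute depth.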
